A study of Mus musculus with 6 samples.

Results

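The 10 genes described here, Dclk1, Trpm5, Pou2f3, Ltc4s, Lrmp, Alox5ap, Hpgds, Il25, Gfi1b and Il17rb, are markers of tuft cells, and they were followed in duodenum from mice lacking the vitamin D receptor (VDR-null) and from wild-type mice. They were chosen by name, each read from the probe set that the platform annotation pairs with that symbol alone, and they are 10 of the 22180 genes that had such a probe set. The study put RNA from the duodenum of 3 VDR-null and 3 wild-type mice on Affymetrix Mouse Gene 2.0 ST arrays, 1 array per mouse. All 6 mice were 10 weeks old and of the C57Bl/6 background. The labels name neither the targeted Vdr allele nor the sex or diet of the mice. Values are signals on the log2 scale, so that a difference of 1 is a doubling, and they are levels in whole duodenum, where fewer tuft cells and less RNA per tuft cell cannot be told apart.

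Tuft cells are rare chemosensory cells scattered through the gut epithelium. They sense luminal metabolites and microbes with the signalling chain of taste cells, which ends in the cation channel Trpm5, and they depend on the transcription factor Pou2f3 for their formation. In the small intestine they are the main source of the cytokine interleukin 25, which acts on innate lymphoid cells through a receptor that contains Il17rb, and they also make cysteinyl leukotrienes and prostaglandin D2. Interleukin 13 from the lymphoid cells acts back on the epithelium and increases tuft cell numbers.

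All 10 genes were bright enough to be tested, which required at least 3 of the 6 arrays above the median of all values, 5.17. For 9 of them all 6 arrays lay above it, and for Il25 5 of 6. The label was checked against a wider list of 34 other genes reported for tuft cells, of which 31 were on the array under a symbol of their own and 21 were tested. Among those tested were the taste receptor subunit Tas1r3 and the phospholipase Plcb2 of the taste chain. The actin-binding protein Espn was tested too, but it is also a brush border gene and so not particular to tuft cells. The taste G protein subunits Gnat3 and Gnb3, the taste receptor Tas1r1, the succinate receptor Sucnr1, the fatty acid receptor Ffar3, Nebl and the cytokine gene Tslp were below the median on all 6 arrays.

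Several of the 10 genes are also used by other cells of the gut wall, such as Alox5ap, Hpgds and Ltc4s by myeloid and mast cells and Lrmp by lymphocytes. Markers of those cells were present in varying amounts. All 12 macrophage and dendritic cell markers were tested, while 8 of 12 mast cell markers, including Cpa3, Fcer1a and Ms4a2, were below the median on all 6 arrays. Of 8 B cell markers 3 were tested and of 5 eosinophil markers 2. The epithelial, brush border, smooth muscle and duodenal lists were tested for every gene they hold (10, 14, 8 and 8 genes).

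Vdr itself read 10.99, 10.86 and 10.85 on VDR-null arrays and 10.72, 10.95 and 11.11 on wild-type arrays, so this probe set did not separate the genotypes; no source used here says whether it lies outside the deleted part, and it checks no label. The arrays differed in ways that followed the genotype only in part. The first principal component of the tested genes carried 62.2% of the variance and had VDR-null replicate 1 and wild-type replicate 1 at its ends. On these 2 arrays the mean of the brush border list lay at 0.82 and -1.14 relative to its mean over all 6 arrays. All 14 genes of that list were higher on VDR-null arrays. Replicates 2 and 3 scored 10.05 and -9.63 on the component in VDR-null and 4.86 and -5.19 in wild-type, so the genotypes overlapped on it. Y-linked transcripts were bright on all arrays and Xist was dim on all of them, and the mean of 3 Y-linked genes was 6.82 on VDR-null replicate 3, against 7.70 to 7.88 on the other 5 arrays.

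None of the 10 tuft cell genes passed the test between genotypes, and the largest difference, in Ltc4s, was 1.17-fold. The test was limma's moderated test over all 13174 genes with Benjamini-Hochberg adjustment, in which 0 genes (0%) passed an adjusted p of 0.05 and 689 had an unadjusted p under 0.05. The adjusted p of the 10 genes ran from 0.683 to 0.954. Of the 10, 6 were higher and 4 lower on VDR-null arrays, and of all genes tested 44% were higher. The median difference (VDR-null minus wild-type) was 0.05 over the 10 genes and -0.03 over all genes tested. At an unadjusted p under 0.05 there was 1 of the 10, Ltc4s, beside 5.23% of all genes tested. Likewise 1 of the 10, again Ltc4s, had arrays that did not overlap between the genotypes, beside 11.1% of all genes tested. Both shares are near the background.

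**Figure D1:**
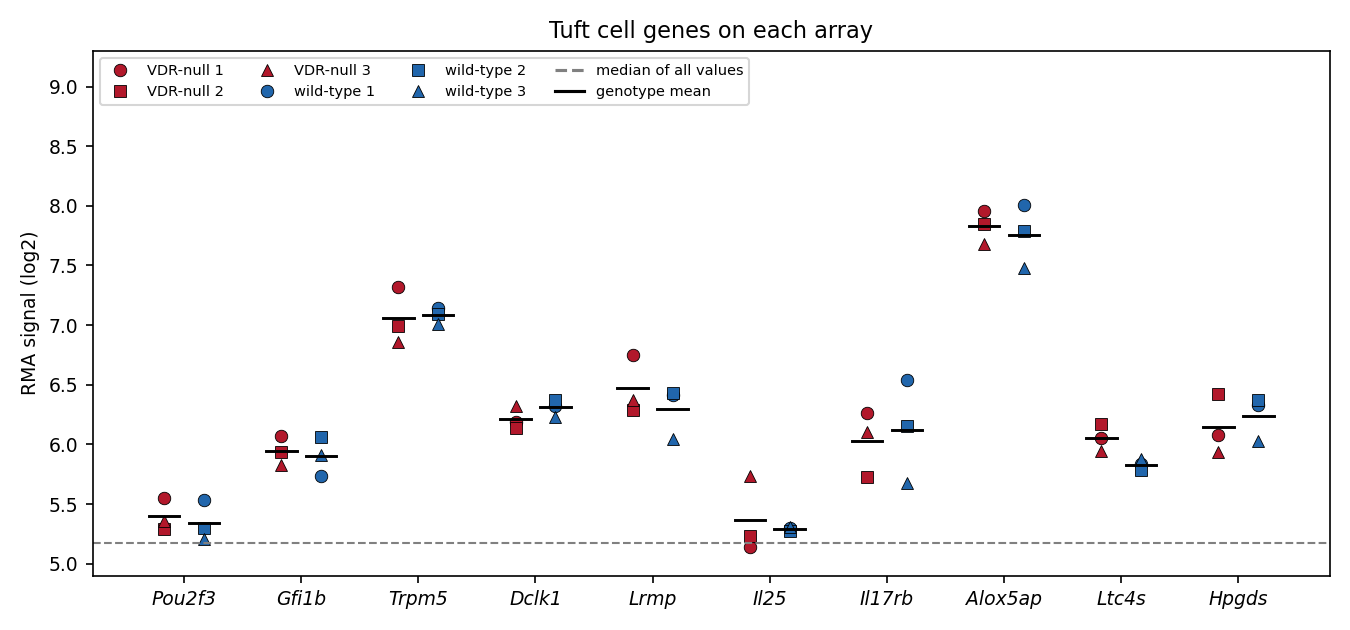
RMA signal (log2) of the 10 tuft cell genes on each array, VDR-null in red and wild-type in blue, with marker shape giving the replicate number, a black bar the genotype mean of 3 arrays and the dashed line the median of all values, 5.17. The genotypes overlap in 9 genes; Ltc4s is the one in which all 3 VDR-null arrays lie above all 3 wild-type arrays.

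The transcription factors of the lineage, Pou2f3 and Gfi1b, differed between the genotypes by less than 1 standard error. Pou2f3, the POU-domain factor without which tuft cells do not form, read 5.55, 5.29 and 5.36 on VDR-null arrays and 5.53, 5.30 and 5.21 on wild-type arrays. In each genotype replicate 1 was the highest, and the other 4 arrays lay close to the median of all values. The difference was 0.06 ± 0.12 (SE; 95% confidence interval -0.23 to 0.35; limma adjusted p = 0.872). Gfi1b, a zinc-finger repressor that marks tuft cells within the gut epithelium and also acts in red cell and platelet precursors, read 6.07, 5.94 and 5.83 in VDR-null duodenum and 5.74, 6.06 and 5.92 in wild-type duodenum. Its groups overlapped over most of their range, and they differed by 0.04 ± 0.12 (SE; limma adjusted p = 0.910). Neither sign was stable: leaving out VDR-null replicate 1 gave -0.020 for Pou2f3 and -0.023 for Gfi1b, leaving out wild-type replicate 3 gave -0.012 for Pou2f3, and leaving out wild-type replicate 1 gave -0.045 for Gfi1b.

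Trpm5 and Dclk1, a calcium-activated channel and a microtubule-associated kinase that serve as the usual tuft cell markers, differed between the genotypes by no more than about 1 standard error. Trpm5 read 7.32, 6.995 and 6.86 on VDR-null arrays and 7.14, 7.09 and 7.01 on wild-type arrays. The VDR-null arrays held both the highest and the lowest value, with an SD of 0.24 (n = 3) against 0.06 in wild-type (n = 3). The difference was -0.02 ± 0.13 (SE; 95% confidence interval -0.34 to 0.29; limma adjusted p = 0.954), and the fits that left out VDR-null replicate 1 or 3 gave -0.15 and 0.075. Dclk1 read 6.19, 6.14 and 6.32 in VDR-null duodenum and 6.32, 6.38 and 6.23 in wild-type duodenum. The VDR-null array with the most Dclk1 stood within the wild-type range and the other two below it. Dclk1 differed by -0.09 ± 0.09 (SE; adjusted p = 0.734 in limma; 95% confidence interval -0.31 to 0.12), and the difference was negative in all 6 fits that left out 1 array, from -0.15 to -0.06. The 6 arrays spanned only 0.24 in Dclk1, the narrowest range of the 10 genes.

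Lrmp, an endoplasmic reticulum membrane protein of tuft cells and lymphocytes, read 6.75, 6.29 and 6.37 on VDR-null arrays and 6.42, 6.43 and 6.05 on wild-type arrays. The highest array was VDR-null and the lowest wild-type, and the 4 others lay within a narrow band that mixed the genotypes. Lrmp differed by 0.17 ± 0.16 (SE; adjusted p = 0.728 in limma; 95% confidence interval -0.21 to 0.56). This rested on those 2 arrays, being 0.03 without VDR-null replicate 1 and 0.05 without wild-type replicate 3. The B cell markers, which share some of Lrmp's cells, had a mean level of 6.62, 7.34 and 7.27 on VDR-null arrays and 6.94, 7.33 and 6.57 on wild-type arrays, low both on VDR-null replicate 1, where Lrmp was highest, and on wild-type replicate 3, where it was lowest. The T cell list had a mean level of 7.71, 7.54 and 6.71 on VDR-null arrays and 6.12, 7.39 and 6.59 on wild-type arrays, highest on the array with the most Lrmp. The part of either list in the Lrmp values was not tested.

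The cytokine Il25 and its receptor subunit Il17rb varied between mice more than between genotypes. Il25 read 5.14, 5.23 and 5.73 on VDR-null arrays, against 5.30, 5.28 and 5.31 on wild-type arrays. The wild-type values lay within 0.03 of each other, while VDR-null replicate 3 stood above all other arrays and the remaining VDR-null arrays just below wild-type. The difference was 0.08 ± 0.16 (SE; 95% confidence interval -0.30 to 0.45; limma adjusted p = 0.870) and -0.11 without VDR-null replicate 3. These are signals close to the median of all values, where background adds to the signal and compresses differences.

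Il17rb, the subunit that gives the receptor its specificity for interleukin 25, had the widest range of the 10 genes, 0.87, or 1.82-fold between the highest and the lowest array. It read 6.27, 5.73 and 6.10 in VDR-null duodenum and 6.54, 6.16 and 5.67 in wild-type duodenum. The wild-type arrays held both ends of the range. The genotypes differed by -0.09 ± 0.24 (SE; adjusted p = 0.896 in limma; 95% confidence interval -0.66 to 0.48), and with 1 array left out by between -0.32, without wild-type replicate 3, and 0.12, without wild-type replicate 1. The interval, which is not adjusted for the genes tested, leaves room for a level 1.58-fold lower or 1.39-fold higher in VDR-null duodenum. A change within those limits is not excluded.

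Partners of the interleukin 25 circuit were read from a list of 16 genes, of which 9 were tested, 5 higher and 4 lower on VDR-null arrays, with a median difference of 0.03 and none past the limma threshold. Il17ra, the signalling subunit with which Il17rb pairs, read 7.36, 7.27 and 7.09 on VDR-null arrays and 6.97, 6.97 and 6.99 on wild-type arrays. All VDR-null arrays were above all wild-type arrays, and the difference was 0.26 ± 0.10 (SE; unadjusted p = 0.0297 and adjusted p = 0.683 in limma). Il33, an alarmin that acts on the same lymphoid cells, read 7.01, 6.37 and 6.55 in VDR-null and 6.14, 6.42 and 6.29 in wild-type duodenum, with overlapping groups (0.36 ± 0.17, SE; adjusted p = 0.683 in limma). Il13, the lymphoid cytokine that acts back on the epithelium, named here for that role after its values were seen, read 5.40, 5.13 and 5.45 on VDR-null arrays and 5.29, 5.80 and 5.54 on wild-type arrays. The groups overlapped, close to the median of all values (-0.22 ± 0.15, SE; adjusted p = 0.688 in limma). The lymphoid cytokine genes Il4, Il5 and Il9 and the receptor Klrg1 were below the median on all 6 arrays.

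**Figure D2:**
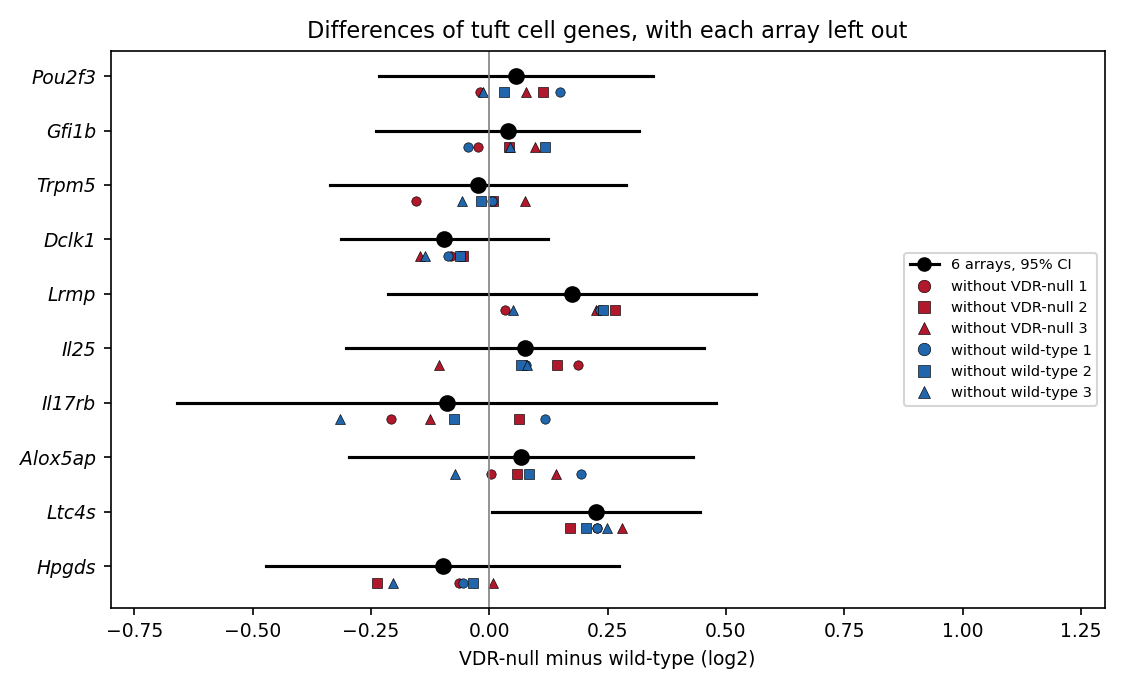
VDR-null minus wild-type differences (log2) of the 10 tuft cell genes: black points and lines give the value and 95% confidence interval over 6 arrays, and the small markers below each the difference after leaving out 1 array (red, a VDR-null array; blue, a wild-type array). The interval of Ltc4s starts just above 0, at 0.0067, before adjustment for the genes tested; the other 9 intervals include 0.

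Among those of the 10 genes that serve the making of lipid mediators, the leukotriene C4 synthase Ltc4s was the one whose arrays separated. It read 6.05, 6.17 and 5.95 on VDR-null arrays, against 5.83, 5.78 and 5.87 on wild-type arrays. The lowest VDR-null array lay just above the highest wild-type array, and the spread within a genotype was small (SD 0.11 in VDR-null and 0.04 in wild-type, n = 3 each). The difference was 0.23 ± 0.09 (SE; 95% confidence interval 0.0067 to 0.45; unadjusted p = 0.0450 and adjusted p = 0.683 in limma), 1.17-fold higher, and did not pass correction. The difference was between 0.17 and 0.28 whichever array was left out. An earlier look at these data had already picked it as the tuft cell gene with the smallest p, so its place among the 10 is no independent support.

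Alox5ap, which encodes the protein that hands arachidonic acid to 5-lipoxygenase at the head of the leukotriene pathway, read 7.96, 7.85 and 7.68 on VDR-null arrays and 8.01, 7.79 and 7.48 on wild-type arrays. The wild-type arrays spanned the VDR-null ones, and the difference was 0.07 ± 0.15 (SE; adjusted p = 0.877 in limma; 95% confidence interval -0.30 to 0.43). Leaving out wild-type replicate 3 gave -0.073. It was the single gene of the 10 with another probe set, which read 3.70 to 4.02 on VDR-null arrays and 4.13 to 4.27 on wild-type arrays. That probe set lay below the median on all 6 arrays and ran in the opposite direction, so no size is given for it. Averaged over both probe sets the difference of Alox5ap was -0.12.

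Hpgds, the hematopoietic prostaglandin D synthase, read 6.08, 6.42 and 5.93 in VDR-null duodenum and 6.33, 6.37 and 6.03 in wild-type duodenum. High and low arrays occurred in both genotypes, and VDR-null held both extremes. The difference was -0.10 ± 0.16 (SE; 95% confidence interval -0.47 to 0.27; limma adjusted p = 0.840). The mean level of the macrophage and dendritic cell list was 7.44, 7.90 and 7.78 on VDR-null arrays and 7.83, 7.91 and 7.33 on wild-type arrays. Replicate 2 of each genotype was high in both that list and Hpgds and wild-type replicate 3 low in both, while VDR-null replicate 3, the lowest array for Hpgds, was above the mean of the list, at 0.087; its part in the Hpgds values was not tested beyond the fit that follows. With that list's mean as a covariate, a fit added after the data were seen, the difference was -0.11 for Hpgds, 0.06 for Alox5ap and 0.23 for Ltc4s. When arrays were weighted by their residual spread, VDR-null replicate 2 had a weight of 4.03 and the Hpgds difference was 0.17 (limma adjusted p = 0.489).

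The RefSeq table of promoters, on build GRCm38.p6, held 7 windows of 300 bases (250 before to 50 after a transcript start) for 6 of the 10 genes: Gfi1b, Dclk1 with 2 starts, Hpgds, Trpm5, Ltc4s and Il17rb. Pou2f3, Lrmp, Alox5ap and Il25 had no entry. The windows of Ltc4s, the gene whose arrays separated, and of Hpgds, the one that holds the octamer read by POU-domain factors such as Pou2f3, are given on the strand of the gene, with the octamer in capitals (chr11:50238483-50238782, minus strand, and chr6:65144681-65144980, minus strand).
Ltc4s: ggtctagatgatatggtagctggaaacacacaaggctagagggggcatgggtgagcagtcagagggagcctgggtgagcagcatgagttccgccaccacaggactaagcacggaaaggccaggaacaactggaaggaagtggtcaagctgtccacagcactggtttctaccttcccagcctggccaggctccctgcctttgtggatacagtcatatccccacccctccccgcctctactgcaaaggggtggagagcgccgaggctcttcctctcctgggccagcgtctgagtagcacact
Hpgds: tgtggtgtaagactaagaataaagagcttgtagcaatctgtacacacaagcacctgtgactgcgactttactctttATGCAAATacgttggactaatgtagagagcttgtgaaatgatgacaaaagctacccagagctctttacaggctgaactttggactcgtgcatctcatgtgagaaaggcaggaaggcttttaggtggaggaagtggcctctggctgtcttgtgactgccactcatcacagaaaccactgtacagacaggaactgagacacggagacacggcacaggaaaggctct
The octamer ATGCAAAT, searched on both strands, begins 174 bases before the start that the table uses for Hpgds and matches in 1 of the 7 windows, beside 1.74% of all 32851 windows. The sequence AAATCAC, the core read by GFI repressors, matched in 0 of 7, beside 3.2% of all windows. The DR3 vitamin D response element, searched by its degenerate form, matched in 0 of 7, beside 0.0396% of all windows, and its strict form in 0 of 7, beside 0.00609%. The octamer and the GFI core can share a few bases, but with 0 matches of the core none could be shared here. A match is a description of the letters, and its absence from a window of this length says nothing about binding elsewhere.

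Partners of the lipid mediator enzymes were read from a list of 18 genes, of which 14 were tested, 7 higher and 7 lower, with a median difference of 0.02 and none past the limma threshold. Lta4h, which makes leukotriene B4 from the substrate that Ltc4s also uses, read 10.20, 10.13 and 10.07 on VDR-null arrays and 9.87, 9.99 and 9.95 on wild-type arrays, a difference of 0.20 ± 0.09 (SE; adjusted p = 0.683 in limma) with separate groups. Pla2g4a, the cytosolic phospholipase that releases arachidonic acid, ran the other way, at 7.75, 8.21 and 8.08 in VDR-null duodenum and 8.56, 8.29 and 8.22 in wild-type duodenum (-0.34 ± 0.15, SE; adjusted p = 0.683 in limma), also with separate groups. Arrays did not overlap in 4 of the 14 genes, 2 higher and 2 lower, beside 11.1% of all genes tested. The other two, named here for that count after their values were seen, were Ggt5, which cleaves the leukotriene C4 that Ltc4s makes (-0.41 ± 0.19, SE), and Ptgdr, a receptor for prostaglandin D2 (0.19 ± 0.09). The adjusted p was 0.683 in limma for each of the 4.

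The 21 tested genes of the wider tuft cell list split 12 higher and 9 lower, with a median difference of 0.04, and none passed the limma threshold or an unadjusted p under 0.05. Arrays did not overlap in 3 of them, Pla2g4a and the homeobox factor Hmx2 lower and the kinase Matk higher on VDR-null arrays, beside 11.1% of all genes tested. Those higher with the smallest p were Plcg2, a phospholipase of immune-type signalling (0.23 ± 0.16, SE), Matk (0.10 ± 0.08), the Ets factor Spib (0.15 ± 0.14), Espn (0.29 ± 0.28) and Tas1r3 (0.10 ± 0.10). Those lower with the smallest p, besides Pla2g4a, were Hmx2 (-0.17 ± 0.09), the stem cell factor Ascl2 (-0.33 ± 0.28), Plcb2 (-0.16 ± 0.14) and the surface protein Cd24a (-0.25 ± 0.22). Ascl2 and Cd24a are also expressed in crypts, and Espn in the brush border. Espn is itself 1 of the 14 genes of the brush border list. The cell division list was lower on VDR-null arrays in all 11 tested genes (median -0.26) and the brush border list higher in all 14 (median 0.62), none past the limma threshold; their part in these 3 genes was not tested.

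**Figure D3:**
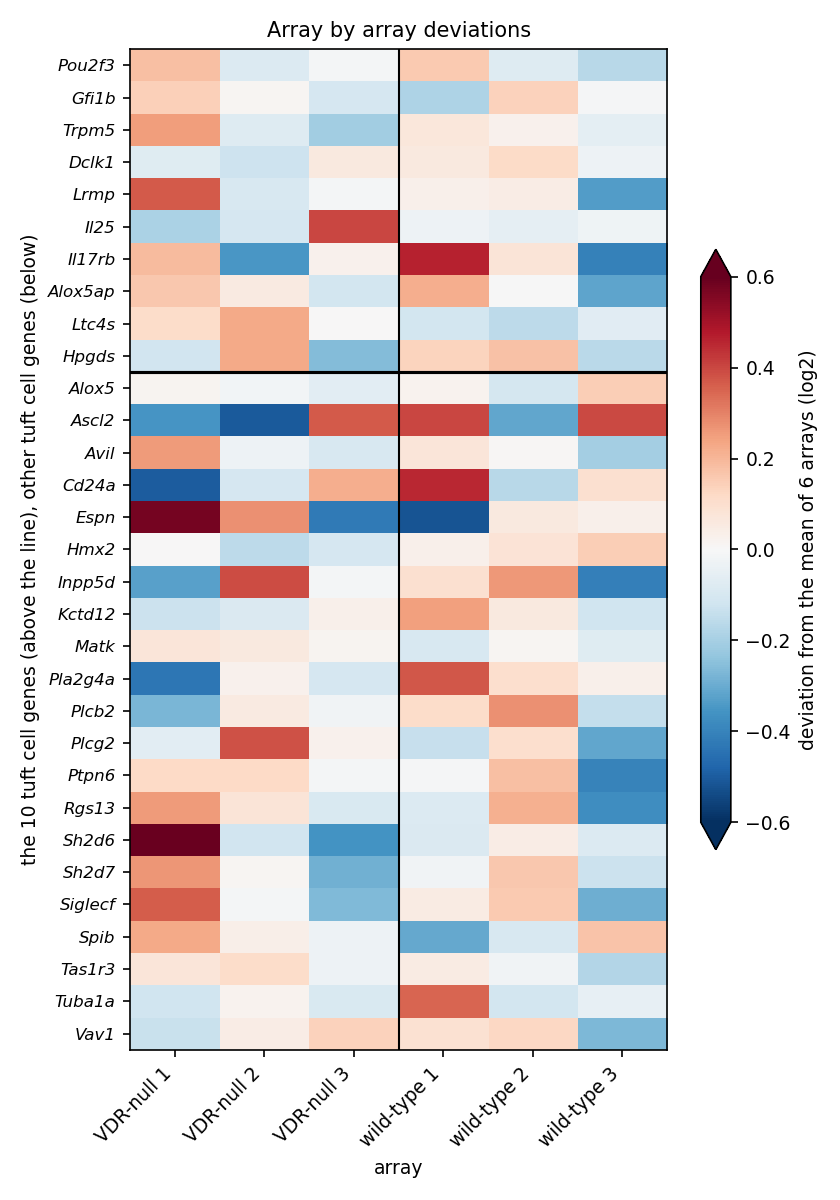
Deviation of each gene from its own mean over 6 arrays (log2; red above, blue below, colours ending at 0.6 either way), for the 10 tuft cell genes above the line and the 21 other tested tuft cell genes below it, with VDR-null arrays on the left. Wild-type replicate 3 is below the mean in all 10 genes and in 14 of the 21. VDR-null replicate 1 is the highest array in 4 of the 10 and in 8 of the 21, and the lowest in 1 of the 10 and in 5 of the 21.

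Array by array, single mice of either genotype stood at the ends of several of the 10 genes. Wild-type replicate 3 lay below the gene's own mean in 10 of 10 genes, beside 49.7% of all genes tested on that array. It was the lowest array in 4, Pou2f3, Lrmp, Alox5ap and Il17rb, beside 13.8% of all genes tested. VDR-null replicate 1 was the highest array in 4, Trpm5, Pou2f3, Lrmp and Gfi1b, beside 24.4% of all genes tested. The median deviation over the 10 genes was 0.15, -0.08 and -0.01 on VDR-null arrays and 0.06, 0.03 and -0.12 on wild-type arrays. In the wider list wild-type replicate 3 was the lowest array in 8 of 21 genes and below the gene's own mean in 14. VDR-null replicate 1 was the highest in 8 of the 21. These include Sh2d6, an adaptor of tuft cells chosen here after its values were seen, at 7.44 on that array and 6.49 to 6.89 on the others. VDR-null replicate 1 was also the lowest in 5 of the 21, beside 33.5% of all genes tested, and its median deviation over the 21 was 0.02. Wild-type replicate 3 was also the lowest array in the means of the macrophage and dendritic cell, mast cell, B cell and eosinophil lists. It was at -0.37, -0.34, -0.44 and -0.39 there, relative to the mean of each list over 6 arrays. VDR-null replicate 1, the highest array in the mean of the 10 genes at 0.10, was at -0.26, -0.26, -0.39 and 0.17 in these lists. The eosinophil mean rests on 2 genes, of which Siglecf is also in the wider tuft cell list. The part of these lists in the tuft cell values was not tested.

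**Figure D4:**
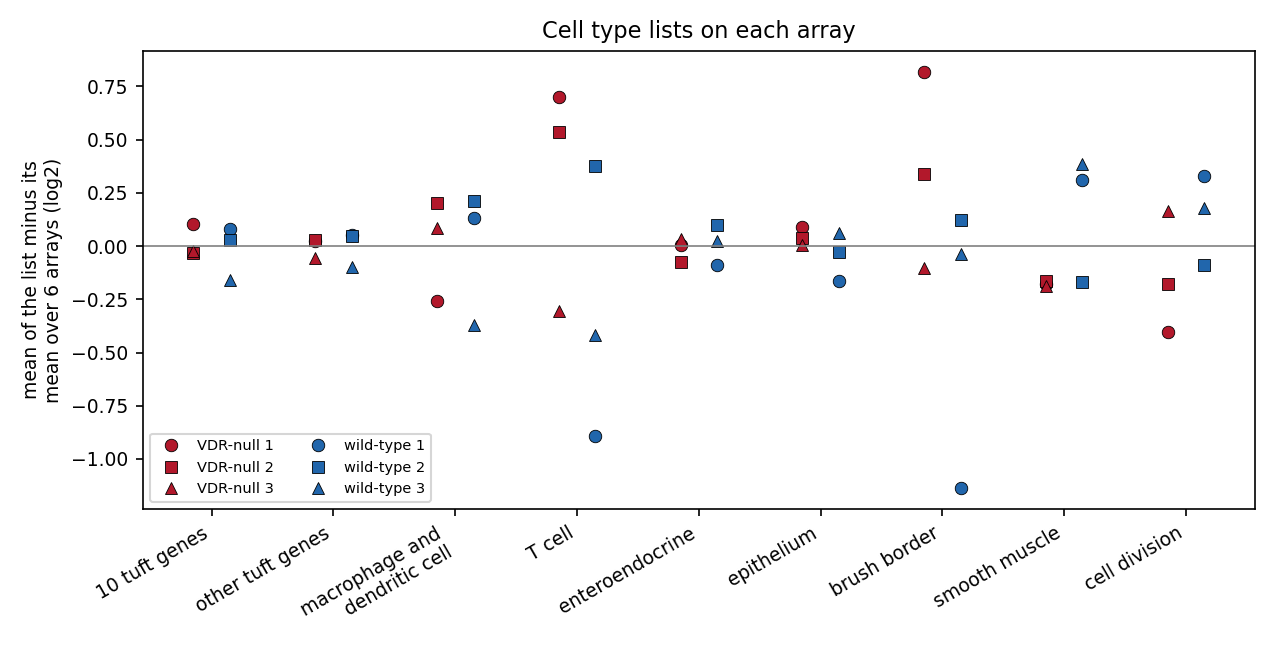
Mean of each gene list on each array minus its mean over the 6 arrays (log2), VDR-null in red and wild-type in blue, marker shape giving the replicate number. The 10 tuft cell genes lie between -0.16 and 0.10, whereas the brush border list runs from -1.14 on wild-type replicate 1 to 0.82 on VDR-null replicate 1.

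The enterocyte genes of the brush border were set beside the tuft cell genes array by array. Wild-type replicate 1, the lowest array in the brush border list at -1.14, was at 0.08 in the mean of the 10 genes, and VDR-null replicate 1, the highest at 0.82, was at 0.10. Adjusted for the mean of the brush border list, the median difference of the 10 genes was 0.11, and with the mean of a general epithelial list (Epcam, keratins and the like) 0.14. In the epithelial list Krt20 varied most, from 8.81 on wild-type replicate 1 to 12.16 on VDR-null replicate 1. The mean of that list had the same lowest and highest array as the brush border mean, so these adjustments are not separate. The median difference of the 10 genes was 0.04 when replicate 1 of both genotypes was left out. It was -0.02 when only that of VDR-null was left out, and -0.04 without wild-type replicate 3. The enteroendocrine list, another set of rare epithelial cells, had 4 genes higher and 4 lower (median -0.04), and the epithelial list 4 higher and 6 lower (median -0.03). The median SD within a genotype was 0.19 over the 10 genes, 0.40 over the brush border list and 0.15 over all genes tested.

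Among the remaining lists of cells that could carry some of the 10 genes, the T cell list was higher on VDR-null arrays in all 8 tested genes (median 0.63), smooth muscle lower in all 8 (median -0.33) and enteric neurons, which also express Dclk1, lower in all 6 (median -0.09). Macrophage and dendritic cell markers were higher in 4 and lower in 8 (median -0.04), mast cell markers higher in 3 of 4 (median 0.14), B cell markers higher in 2 of 3 (median 0.04), eosinophil markers higher in 2 of 2 (median 0.22), and erythroid and platelet markers higher in 1 of 2 (median 0.09). The duodenal list was higher in 7 of 8 genes (median 0.16). No gene of these lists passed the limma threshold, and their part in the tuft cell values was not tested beyond the fits with covariates given above.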

How the data were processed

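RNA from the duodenum of 3 VDR-null and 3 wild-type mice was measured on 1-colour Affymetrix arrays. The authors deposited log2 signals for each probe set and array; the submitters' processing notes name RMA and Affymetrix Expression Console, with no version, and do not say whether all 6 arrays were normalized as 1 set. RMA subtracts background, makes the arrays' distributions equal and summarises the probes of a set, so dim genes show compressed differences. Of 41345 probe sets the platform annotation gave 23521 a single symbol, 1814 several and 16010 none. This gave 22180 genes, each read from its brightest probe set on average. Genes with at least 3 of 6 arrays above the median of all values, 5.17, were tested, 13174 in all.

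Genotypes, taken from the sample titles, were compared by lmFit and eBayes of limma 3.58.1 (R 4.3.3; two-sided, no covariate), Benjamini-Hochberg over all genes tested, threshold 0.05. The procedure was run on simulated data with independent noise for each gene and changes larger than the differences of the 10 genes. That run does not carry the differences that arrays share here, so it does not measure what these arrays could detect. The labels do not say more than that samples are separate mice, and the number of arrays limits the precision. The 10 genes and the lists were chosen with earlier results of these data known. Named by rule besides the 10 genes are Vdr and the wider tuft cell genes with the smallest p (up to 5 in each direction). The rule also allowed up to 2 genes of each other list. Such genes are named only for the lists of interleukin 25 and lipid mediator partners. Il13, Ggt5, Ptgdr, Sh2d6 and Krt20 were named in addition, after their values were seen. Other lists are given by counts and mean levels, apart from genes named as dim or as examples. Alternatives were other filters, normalizations, variance priors and weights, covariates, each array left out, the replicate number as a block and other probe set rules.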

Additional observations from a re-analysis of the deposited data

How the results depend on the processing

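In 24 of 25 alternative settings 0 genes and 0 of the 10 tuft cell genes passed; at an unadjusted p under 0.05 there were 689 genes and 1 of the 10, Ltc4s. The lowest adjusted p of any of the 10 under any setting was 0.191, for Ltc4s with array weights. Ltc4s, Lrmp and Dclk1 kept their sign in all settings. Of 249 single-gene values under the alternatives 22 turned their sign. Many of the 249 could not turn. Settings that changed only the filter, the variance prior, the threshold, the replicate block or the probe sets tested left the differences as they were. The count therefore understates how often signs turned where they could. With cyclic loess Trpm5 was at 0.0092. With array weights Hpgds was at 0.17 and Il25 at -0.0060. With the brush border and the epithelial covariate Gfi1b was at -0.13 and -0.063, and Il17rb at 0.10 and 0.17. Without replicate 1 of both genotypes Gfi1b was at -0.11 and Il17rb at 0.0012, and with both of its probe sets averaged Alox5ap was at -0.12. The cause was not tested, except that the last value adds a dim probe set. Leaving out 1 array gave ranges of -0.020 to 0.15 for Pou2f3, -0.045 to 0.12 for Gfi1b, -0.15 to 0.075 for Trpm5, -0.24 to 0.0073 for Hpgds, -0.11 to 0.19 for Il25, -0.32 to 0.12 for Il17rb and -0.073 to 0.19 for Alox5ap. Fewer arrays overlap less often in any gene: the count of the 10 genes without overlap was 2 without VDR-null replicate 1 (beside 17.7% of all genes tested in that fit) or wild-type replicate 3 (17.7%), 3 without VDR-null replicate 3 (34%), 1 in the other fits without 1 array (16.1% to 31.7%), and 2 without replicate 1 of both genotypes (29%). It was 2 with probe sets averaged per gene (11.1%). With all 6 arrays required above the median Il25 was not tested. The labels do not say whether the replicate numbers pair the mice. Same-numbered arrays correlated at -0.62, 0.19 and -0.26 in their deviations from the genotype means. Deviations from a mean of 3 arrays depend on each other, so these correlations cannot decide it. With the replicate number as a block 0 genes and 0 of the 10 passed (Ltc4s 0.23, limma adjusted p = 0.831). Signals near the median of all values limit Pou2f3 and Il25 most.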
